A study of Homo sapiens with 6 samples.

Results

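C4-2 prostate cancer cells that had received astemizole were compared with cells that had received vehicle, gene by gene, over the 12617 genes that reached 1 FPKM or more in either of these libraries, out of 26760 gene names kept from the deposited table. FPKM counts the fragments of a gene per unit of transcript length and relative to all fragments mapped. A gene under 1 FPKM with vehicle was kept only through its astemizole value, so it could only lie above vehicle. List members under 1 FPKM in both of these libraries are not in the measured counts. Each comparison is the log2 ratio of FPKM + 1 with astemizole to FPKM + 1 in a control, so that a difference of 1 is a 2-fold difference, and the scale understates the differences of genes with low values. C4-2 is an established line derived from LNCaP, and the cells were at passages 10 to 15. The conditions were astemizole, GSK126, lentivirus with either of 2 EZH2 shRNAs, vehicle, and lentivirus with a scramble shRNA, with 1 library each. The doses and the length of treatment are not given in the labels. The EZH2 knockdown appears as 1 column of the table and is used here as the authors' value. With 1 library a side there is no replicate check, no test and no p-value, and every ratio describes these libraries. For that reason each gene named below was also set against the scramble shRNA library, which had the same cells but lentivirus in place of the drug solvent. Where a gene is called higher or lower without further words, it passed 2-fold in the same direction against vehicle and against scramble.

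Astemizole is an antihistamine of the piperidine class that was taken off the market because it blocks a cardiac potassium channel. It is a cationic amphiphilic compound, a kind of drug known to collect in acidic lysosomes, and it has also been described as a disruptor of the contact between EZH2 and EED. EZH2 is the enzyme of Polycomb repressive complex 2 (PRC2) that methylates histone tails at silenced genes, EED holds and activates it, and SUZ12 is the scaffold of the complex. GSK126 occupies the catalytic site of EZH2 instead. The comparison therefore asks what a compound aimed at the assembly of PRC2 does to the transcripts of prostate cancer cells.

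With astemizole, most genes of cell division and DNA replication were lower than both controls, as were 8 of 22 glycolysis and 7 of 37 androgen-induced genes. Higher than both controls were 17 of 36 integrated stress response genes, 8 of 22 cholesterol synthesis genes, 6 of 46 lysosomal hydrolases, both ferritin chains and 2 of 7 CDK inhibitors. The median of the CDK inhibitors lay below both controls. Against vehicle, 456 genes (3.61% of those tested) were at least 2-fold higher and 710 (5.63%) at least 2-fold lower. Against both controls, 352 genes (2.79%) were higher and 421 (3.34%) lower, and 31 of the higher and 92 of the lower genes passed 4-fold in both. The shares against both controls are the background for the list counts below, and several lists with 1 passing member lie near them. The controls themselves differed less: 17 genes (0.135%) were at least 2-fold higher with scramble shRNA than with vehicle, and 110 (0.872%) were at least 2-fold lower. The balance of directions depended on the control, since 39.1% of the genes past 2-fold were higher against vehicle, 54.3% against scramble and 45.5% against both. The median log2 ratio of all genes was -0.06 over vehicle and 0.03 over scramble, and the standard deviation over genes was 0.64 for astemizole over vehicle and 0.33 for scramble over vehicle. By these medians a majority of all genes lay below vehicle and a majority above scramble. Counts of list members above or below a control are to be read beside that, and the exact share of all genes was not computed.

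Cell identity and depth were checked as far as the table allows, and the treatment labels could not be checked by these markers. Of 18 luminal epithelial markers, 17 stood at 1 FPKM or more with astemizole and 18 in each of vehicle and scramble, and no endothelial marker reached 1 FPKM in any column. With astemizole 3 of 13 blood cell, 3 of 8 basal epithelial and 2 of 12 fibroblast markers reached it. The highest blood cell marker was at 49.96 FPKM with astemizole, against 42.9 with vehicle and 38.1 with scramble. Liver transcripts stood apart: the summed FPKM of 19 liver markers was 6.21 with astemizole, 217 with GSK126 and 3.43 in the knockdown column, against 26.3 with vehicle and 2.36 with scramble, and 8, 0, 6, 1 and 11 of them were listed at 0 in the same order. Of 8 measured liver markers, 6 were at least 2-fold lower with astemizole than with vehicle and 0 lower than with both controls. The part that the source of these transcripts plays in the other differences from vehicle was not tested. Low values are spaced in steps of 1 read, and that step was 1.05 times as large with astemizole as with vehicle and 1.22 times as large as with scramble. Absolute depth is unknown.

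**Figure D1:**
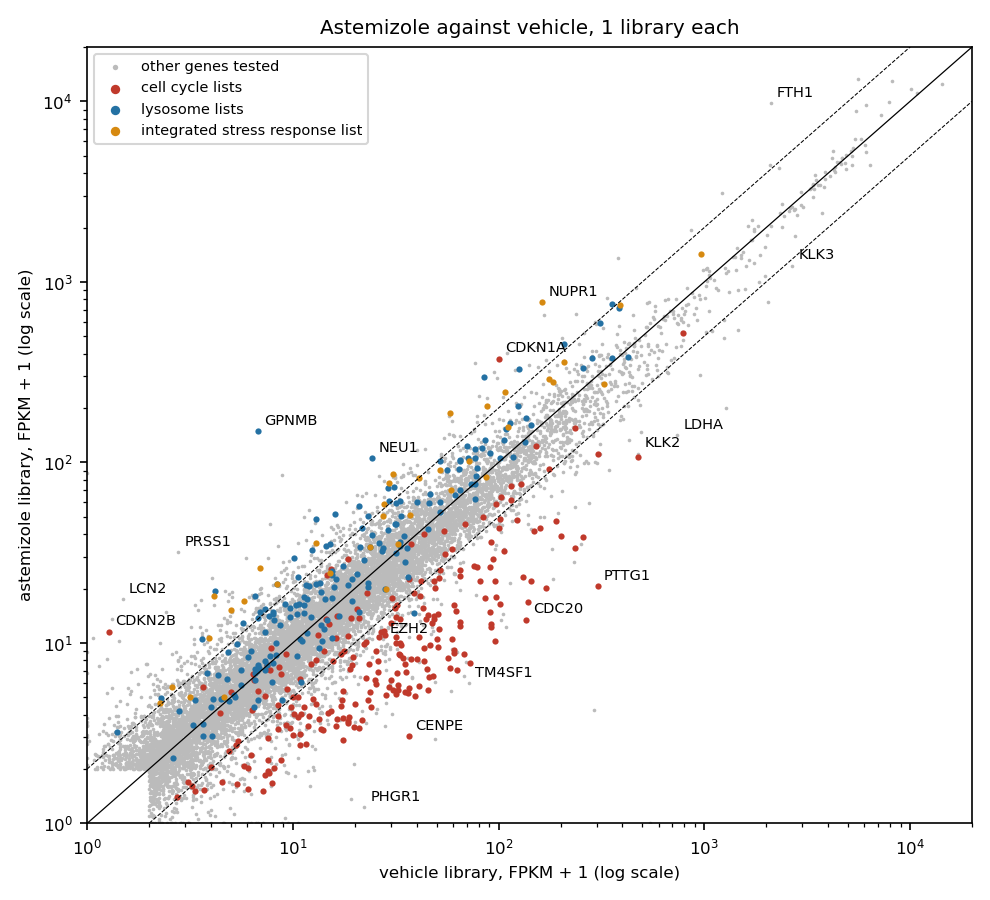
FPKM + 1 of each of the 12617 genes in the astemizole library (vertical, log scale) and in the vehicle library (horizontal, log scale), 1 point per gene. The solid line marks equal values and the dashed lines 2-fold differences. Cell cycle genes (red) lie mostly below the lower dashed line, and lysosome (blue) and integrated stress response genes (orange) mostly above the solid line.

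The subunits of PRC2 were examined at the outset. EZH2 itself stood at 9.47 FPKM with astemizole, 17.5 with GSK126 and 3.35 in the knockdown column, against 26.5 with vehicle and 24.6 with scramble shRNA. The astemizole value lay below both controls and above the knockdown column, with log2 ratios of -1.39 over vehicle and -1.29 over scramble. EED was at 7.71 FPKM with astemizole, 10.6 with GSK126 and 8.16 in the knockdown column, against 14.9 with vehicle and 13.6 with scramble shRNA, and its ratios of -0.87 over vehicle and -0.74 over scramble did not reach 2-fold. SUZ12 was at 18.1 FPKM with astemizole, 24 with GSK126 and 13.4 in the knockdown column, against 28.4 with vehicle and 28.6 with scramble shRNA, with ratios of -0.62 over vehicle and -0.63 over scramble. EZH1, the paralogous methyltransferase that non-dividing cells also use, was at 4.56 FPKM with astemizole, against 3.81 with vehicle and 2.85 with scramble shRNA, a difference within 2-fold. Of 12 measured PRC2 core and accessory subunits, 3 were at least 2-fold lower than vehicle, and of these EZH2 alone passed against both controls. The 2 that did not pass were the histone-binding subunit RBBP7, at 84.6 FPKM with astemizole, against 186 with vehicle and 159.6 with scramble shRNA, and C17orf96, at 8.22 FPKM with astemizole, against 17.9 with vehicle and 16.5 with scramble shRNA. The median of the list was -0.61 over vehicle and -0.45 over scramble. PRC1, the Polycomb complex that ubiquitinates histones, had 0 of 20 measured subunits past 2-fold in either direction, and its median was -0.17 over vehicle and 0.06 over scramble.

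Of 19 listed genes reported as repressed by EZH2, 12 were measured, and 2 of these were higher. The other listed genes were under 1 FPKM with both astemizole and vehicle. The median of the 12 was -0.05 over vehicle and 0.13 over scramble. The pair that passed differed by a wide margin. CDKN2B, an inhibitor of the kinases that drive cells into the cycle, was at 10.5 FPKM with astemizole, 0.463 with GSK126 and 1.59 in the knockdown column, against 0.282 with vehicle and 0.214 with scramble shRNA. It was below 1 FPKM in both controls, so it passed the filter through the astemizole value alone. Its log2 ratios were 3.17 over vehicle and 3.25 over scramble. IGFBP3, a secreted binding protein of insulin-like growth factors, was at 16.2 FPKM with astemizole, against 2.58 with vehicle and 1.37 with scramble shRNA, with ratios of 2.26 over vehicle and 2.86 over scramble. Another member differed little, the secreted signal WNT5A, at 2.57 FPKM with astemizole, against 3.33 with vehicle and 3.15 with scramble shRNA. HOX genes pattern the body axis and are classical Polycomb targets. Of 18 measured members 1 was higher and 0 lower, beside 2.79% and 3.34% of all genes tested. Their median was -0.05 over vehicle, 0.26 over scramble and 0.04 after centring on the median. The one that passed was HOXB9, at 14.2 FPKM with astemizole, 4.73 with GSK126 and 2.62 in the knockdown column, against 2.45 with vehicle and 2.23 with scramble shRNA.

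Genes of mitosis were lower with few exceptions. Cyclins and mitotic kinases carry a cell through division, and the anaphase-promoting complex then removes them. Of 30 measured cyclins, mitotic kinases and anaphase regulators, 27 were at least 2-fold lower than vehicle, 26 were lower than both controls and 0 were higher. The list median was -2.39 over vehicle and -2.08 over scramble, against -0.06 and 0.03 for all genes. PTTG1, the securin that restrains the separation of sister chromatids, was at 19.7 FPKM with astemizole, 146 with GSK126 and 14.3 in the knockdown column, against 303 with vehicle and 139.8 with scramble shRNA. CDC20, which activates the anaphase-promoting complex, was at 12.4 FPKM with astemizole, 69 with GSK126 and 4.83 in the knockdown column, against 136 with vehicle and 80.2 with scramble shRNA, with log2 ratios of -3.35 over vehicle and -2.60 over scramble. CCNB2, a mitotic cyclin, was at 9.28 FPKM with astemizole, against 95.5 with vehicle and 58.7 with scramble shRNA. PLK1, the kinase that matures the spindle poles, was at 6.72 FPKM with astemizole, against 71.3 with vehicle and 35.3 with scramble shRNA. In each of these the astemizole library was the lowest of the drug and control libraries, and only the knockdown column lay lower. FZR1, the alternative activator of the anaphase-promoting complex, was among the 3 members within 2-fold of vehicle, at 10.1 FPKM with astemizole, against 12.2 with vehicle and 9.52 with scramble shRNA, as was the kinase-binding subunit CKS2, at 521 FPKM with astemizole, against 784 with vehicle and 437 with scramble shRNA.

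Promoters of such genes are known to carry the cell cycle homology region, a short element bound by the DREAM and MYBL2-FOXM1 complexes. Its letters TTTGAA or TTCGAA, searched on both strands, were present in 15 of 24 cyclin and mitotic kinase promoters (62.5%) and in 35 of 50 kinetochore and spindle promoters (70%). Among all 27305 RefSeq promoter windows of the same length 16.6% held them, and among the 9668 windows that could be matched to tested genes 10.7% did. Each window runs from 250 bases before to 50 bases after the first listed start of a gene in RefSeq on build GRCh38.p14. The promoters of CDC20 (chr1:43358731-43359030, plus strand) and of the spindle gene HMMR (chr5:163460382-163460681, plus strand) are shown because both genes were among the 12 lowest, with the matches in capitals. The matches begin at -178 and -65 from the start site in CDC20 and at -28 and -22 in HMMR. A match describes the letters of the window and not a bound site.
CDC20: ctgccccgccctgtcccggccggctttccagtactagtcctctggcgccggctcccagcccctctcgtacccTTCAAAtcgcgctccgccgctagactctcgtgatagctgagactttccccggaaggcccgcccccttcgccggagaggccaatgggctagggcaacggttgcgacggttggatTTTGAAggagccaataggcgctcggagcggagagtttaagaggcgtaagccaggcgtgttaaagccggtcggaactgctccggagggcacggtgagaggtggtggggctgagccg
HMMR: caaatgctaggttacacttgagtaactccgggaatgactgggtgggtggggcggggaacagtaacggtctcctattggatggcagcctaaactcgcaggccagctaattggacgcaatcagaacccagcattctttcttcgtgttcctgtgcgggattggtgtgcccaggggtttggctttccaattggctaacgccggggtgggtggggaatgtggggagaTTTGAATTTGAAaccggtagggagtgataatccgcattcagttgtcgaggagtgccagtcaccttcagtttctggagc

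Kinetochore and spindle genes, which attach chromosomes to microtubules, were lower almost without exception. Of 57 measured, 55 were at least 2-fold lower than vehicle and 51 lower than both controls, with a median of -2.26 over vehicle and -1.93 over scramble. CENPE, the kinesin that moves chromosomes to the spindle equator, was at 2.05 FPKM with astemizole, 26.7 with GSK126 and 0.893 in the knockdown column, against 35.8 with vehicle and 32.5 with scramble shRNA. HMMR, a spindle assembly factor, was at 6.05 FPKM with astemizole, against 61.9 with vehicle and 43.4 with scramble shRNA, with log2 ratios of -3.16 over vehicle and -2.65 over scramble. DLGAP5, which stabilizes kinetochore fibres, was at 4.49 FPKM with astemizole, against 44.2 with vehicle and 28 with scramble shRNA. BIRC5, the survivin subunit of the chromosomal passenger complex, was at 7.69 FPKM with astemizole, against 67.1 with vehicle and 41.9 with scramble shRNA. All 57 members lay below vehicle and below scramble. The smallest difference from vehicle was that of KIF22, a chromosome-arm kinesin, at 57.5 FPKM with astemizole, against 96.7 with vehicle and 74 with scramble shRNA.

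Condensin, which compacts chromosomes in mitosis, and cohesin, which holds sister chromatids, were taken as 1 list. Of 18 measured subunits and regulators, 8 were lower and 0 higher, with a median of -1.10 over vehicle and -1.02 over scramble. The condensin ATPase SMC4 was at 13.9 FPKM with astemizole, against 90.1 with vehicle and 63.8 with scramble shRNA, and the condensin subunit NCAPG was at 2.42 FPKM with astemizole, against 18.8 with vehicle and 16.4 with scramble shRNA. ESCO2, which acetylates cohesin during replication, was at 2.77 FPKM with astemizole, against 15.4 with vehicle and 13.6 with scramble shRNA. The cohesin subunit STAG2 was at 34.4 FPKM with astemizole, against 36.4 with vehicle and 38.1 with scramble shRNA, and the cohesin loader NIPBL was at 5.74 FPKM with astemizole, against 5.42 with vehicle and 6.83 with scramble shRNA, both within 2-fold of either control.

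Replication genes were lower by smaller margins than mitotic genes. Of 53 measured genes of replication origins and forks, 45 were at least 2-fold lower than vehicle and 41 lower than both controls, and all 53 lay below 0. The median was -1.53 over vehicle and -1.43 over scramble. TOP2A, the topoisomerase that untangles daughter chromosomes, was at 6.26 FPKM with astemizole, 34 with GSK126 and 2.45 in the knockdown column, against 56.8 with vehicle and 44.7 with scramble shRNA. ASF1B, a chaperone for new histones, was at 11.4 FPKM with astemizole, against 63.9 with vehicle and 66.5 with scramble shRNA. GINS1, a subunit of the replicative helicase, was at 7.15 FPKM with astemizole, against 39 with vehicle and 30.2 with scramble shRNA, with log2 ratios of -2.29 over vehicle and -1.93 over scramble. RFC3, part of the loader of the sliding clamp, was at 16.7 FPKM with astemizole, against 84.8 with vehicle and 72.8 with scramble shRNA. Some members with wider roles differed less, such as RPA1, which coats single-stranded DNA, at 44.7 FPKM with astemizole, against 67.8 with vehicle and 68.3 with scramble shRNA. E2F factors switch these genes on before S phase, and the E2F letters TTCCCGC and TTGGCGC, or the close variants TTCGCGC and also TTGCCGC, searched on both strands, were in 32 of 46 matched promoters of the list (69.6%), against 13.1% of all promoter windows and 21.3% of those of tested genes. The promoter of GINS1 (chr20:25407423-25407722, plus strand) is shown because it is one of the 4 largest differences of the list with such a match, which begins at position 5 after the start site.
GINS1: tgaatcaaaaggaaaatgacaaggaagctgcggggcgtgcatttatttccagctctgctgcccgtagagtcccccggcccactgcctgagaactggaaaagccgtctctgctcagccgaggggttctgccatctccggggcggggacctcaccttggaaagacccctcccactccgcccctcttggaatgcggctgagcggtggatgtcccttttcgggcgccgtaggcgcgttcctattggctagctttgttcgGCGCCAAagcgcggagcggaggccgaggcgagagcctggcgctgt

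Of 14 measured enzymes that supply deoxynucleotides, 7 were lower and 0 higher, with a median of -1.10 over vehicle and -0.80 over scramble. RRM2, the inducible subunit of ribonucleotide reductase, was at 11.3 FPKM with astemizole, 41.1 with GSK126 and 4.3 in the knockdown column, against 90.8 with vehicle and 80.9 with scramble shRNA. TK1, the cytosolic thymidine kinase, was at 37.6 FPKM with astemizole, against 255 with vehicle and 160.1 with scramble shRNA. Thymidylate synthase, TYMS, was at 21.1 FPKM with astemizole, against 94.7 with vehicle and 74.8 with scramble shRNA. A pair of counterparts that serve resting cells and mitochondria, picked after their values were seen, stayed within 2-fold. RRM2B, the p53-induced reductase subunit, was at 28.3 FPKM with astemizole, against 17.5 with vehicle and 16.2 with scramble shRNA, and TK2, the mitochondrial thymidine kinase, was at 5.19 FPKM with astemizole, against 5.49 with vehicle and 5.14 with scramble shRNA. Of 12 matched promoters of this list, 3 (25%) held the E2F letters, close to the 21.3% of promoter windows of tested genes.

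Homologous recombination and Fanconi genes, which repair breaks and crosslinks, included 16 lower members of 30 measured and 0 higher, with a median of -1.06 over vehicle and -1.17 over scramble. FANCI, part of the complex that marks crosslinks, was at 7.27 FPKM with astemizole, against 33.4 with vehicle and 32.8 with scramble shRNA. Among E2F, MYBL2, FOXM1 and RB family genes, 8 of 20 were lower, with a median of -0.71 over vehicle and -0.83 over scramble. MYBL2, the activator of mitotic promoters, was at 20.9 FPKM with astemizole, 74.4 with GSK126 and 4.9 in the knockdown column, against 142 with vehicle and 103 with scramble shRNA. FOXM1, its successor in G2 phase, was at 9.52 FPKM with astemizole, against 58.6 with vehicle and 39.1 with scramble shRNA. The activator E2F1 was at 12.6 FPKM with astemizole, against 43.5 with vehicle and 40.2 with scramble shRNA. RBL2, the pocket protein of the repressive DREAM complex, lay on the other side of 0, at 24.8 FPKM with astemizole, against 14.3 with vehicle and 16.4 with scramble shRNA, within 2-fold. Of 9 measured G1 cyclins and CDKs, 4 were lower: SKP2, CCNE2, CDK2 and CDC25A. SKP2, which marks CDK inhibitors for destruction, was at 8 FPKM with astemizole, against 24.4 with vehicle and 23.1 with scramble shRNA. In these bulk libraries fewer dividing cells and less of these RNAs per cell cannot be told apart.

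Of 19 measured replication-dependent histone genes, 2 were higher and 2 lower against both controls, and the median was 0.57 over vehicle and 0.68 over scramble. HIST1H4C, a histone gene transcribed in S phase, was at 4.41 FPKM with astemizole, 18.9 with GSK126 and 8.39 in the knockdown column, against 58 with vehicle and 42.4 with scramble shRNA. HIST3H2A lay the other way, at 139.7 FPKM with astemizole, against 59.5 with vehicle and 41.3 with scramble shRNA. Transcripts of this class mostly end without a poly(A) tail, so a polyadenylated library holds the minority that carries one. Reads of near-identical histone copies can be shared between them, which makes single members uncertain.

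**Figure D2:**
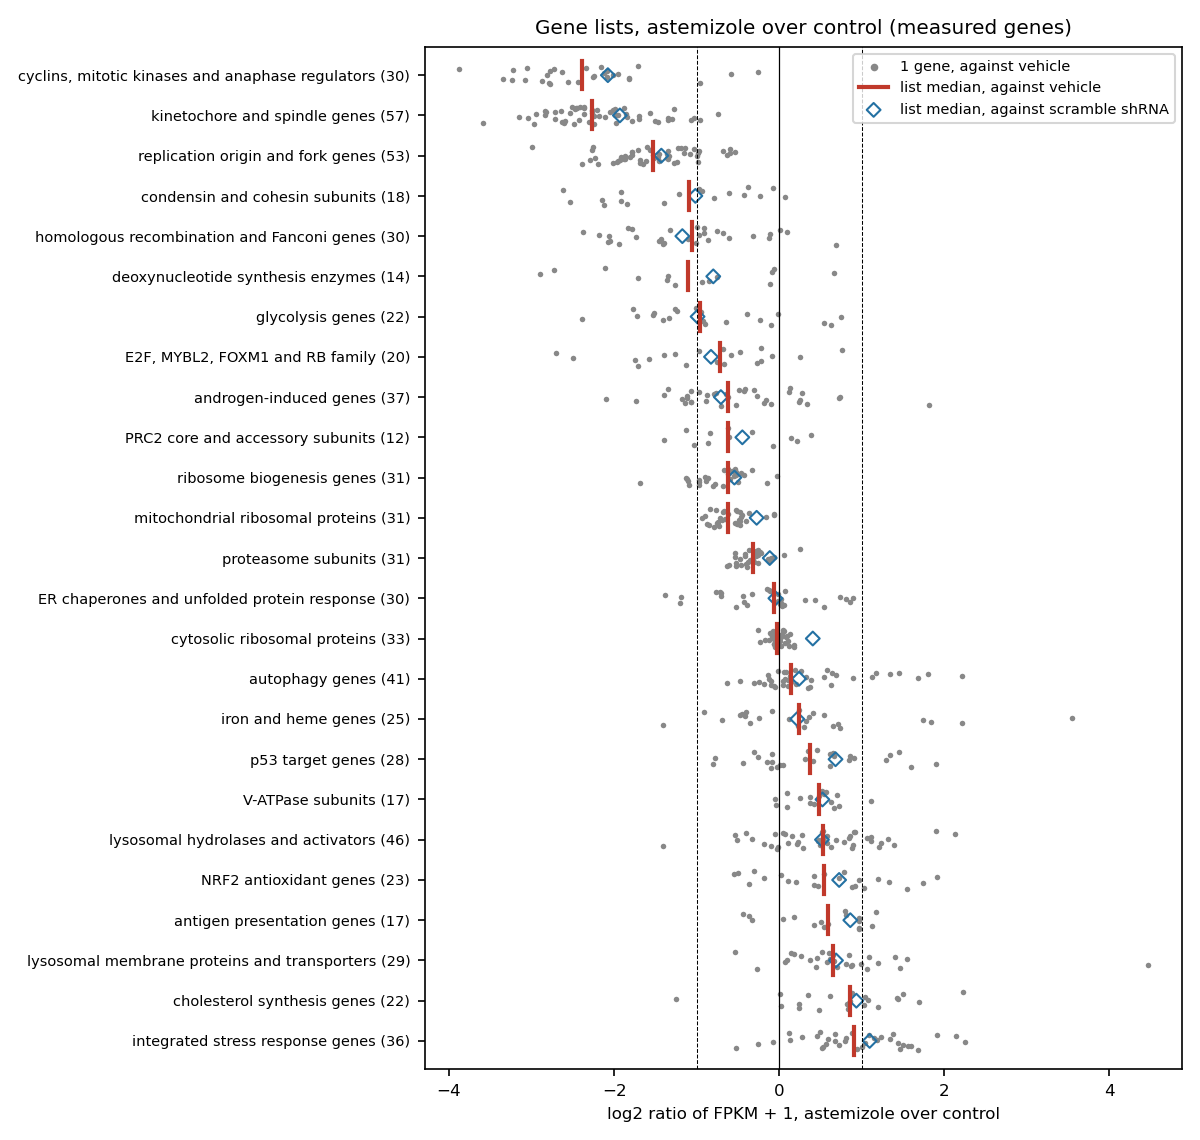
Log2 ratio of FPKM + 1, astemizole over control (horizontal), for the measured genes of 25 lists (rows, number measured in parentheses). Grey points are genes against vehicle, red bars list medians against vehicle and open diamonds list medians against scramble shRNA. Medians of the mitotic lists lie at -2.39 and -2.26 against vehicle, and those of the integrated stress response and cholesterol synthesis lists at 0.91 and 0.85.

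Some growth-arrest genes lay on the opposite side. Of 7 measured CDK inhibitors, 2 were higher: CDKN2B, described above, and CDKN1A. The list as a whole did not follow them, with a median of -0.37 over vehicle and -0.28 over scramble. Of the 7, 4 lay below vehicle, 2 were at least 2-fold lower than vehicle and 0 were lower than both controls. CDKN1A, which stops the cycle downstream of p53 and of other signals, was at 374 FPKM with astemizole, 73.6 with GSK126 and 369.8 in the knockdown column, against 99.4 with vehicle and 48 with scramble shRNA. Its log2 ratios were 1.90 over vehicle and 2.94 over scramble, and the controls differed by -1.03 (scramble over vehicle). CDKN2C, an inhibitor of the same family as CDKN2B, went the other way against vehicle and stayed within 2-fold of scramble, at 10.6 FPKM with astemizole, against 25.8 with vehicle and 17.4 with scramble shRNA. The related inhibitor CDKN1B was at 40.9 FPKM with astemizole, against 53.2 with vehicle and 49.7 with scramble shRNA, within 2-fold. Of 28 measured p53 target genes, 5 were higher and 0 lower. Their median was 0.38 over vehicle and 0.68 over scramble. Besides CDKN1A these were BBC3, TP53INP1, SESN2 and GADD45A. BBC3, the pro-death protein PUMA, was at 9.92 FPKM with astemizole, against 2.6 with vehicle and 2.13 with scramble shRNA. SESN2, a sestrin that restrains mTORC1, was at 20.3 FPKM with astemizole, against 7.4 with vehicle and 4.83 with scramble shRNA. Several standard p53 targets stood within 2-fold of vehicle, such as MDM2, the ubiquitin ligase of p53, at 38.9 FPKM with astemizole, against 31.2 with vehicle and 18.7 with scramble shRNA, and the death effector BAX, at 45.8 FPKM with astemizole, against 46.5 with vehicle and 30.6 with scramble shRNA. SESN2 is also counted in the integrated stress response and autophagy lists, and TP53INP1 in the autophagy list. Counts of lists that share members are not separate. Of 17 BCL2 family genes, BBC3 was higher and BNIP3, which is also hypoxia-inducible, was lower, at 173 FPKM with astemizole, against 400.0 with vehicle and 558 with scramble shRNA.

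ID proteins block differentiation factors by binding them without touching DNA, and all 3 measured ID genes were higher. ID1 was at 53.5 FPKM with astemizole, 4.49 with GSK126 and 36.9 in the knockdown column, against 11 with vehicle and 4.22 with scramble shRNA. ID2 was at 44.6 FPKM with astemizole, 10.0 with GSK126 and 17.7 in the knockdown column, against 6.75 with vehicle and 5.51 with scramble shRNA, and ID3 was at 33.4 FPKM with astemizole, 3.78 with GSK126 and 31.2 in the knockdown column, against 7.5 with vehicle and 3.15 with scramble shRNA. In ID1 and ID3 the knockdown column was also high and GSK126 was below vehicle, while the controls themselves differed, with scramble over vehicle at -1.20 for ID1 and -1.04 for ID3. The other 9 measured genes of the ID and TGF-beta/BMP feedback list stayed within 2-fold of at least 1 control, and the list median was 0.31 over vehicle and 0.68 over scramble. BAMBI, a decoy receptor induced by BMP signals, was at 43.7 FPKM with astemizole, against 36.8 with vehicle and 17.3 with scramble shRNA, and the inhibitory SMAD6 was at 6.76 FPKM with astemizole, against 7.91 with vehicle and 8.63 with scramble shRNA.

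**Figure D3:**
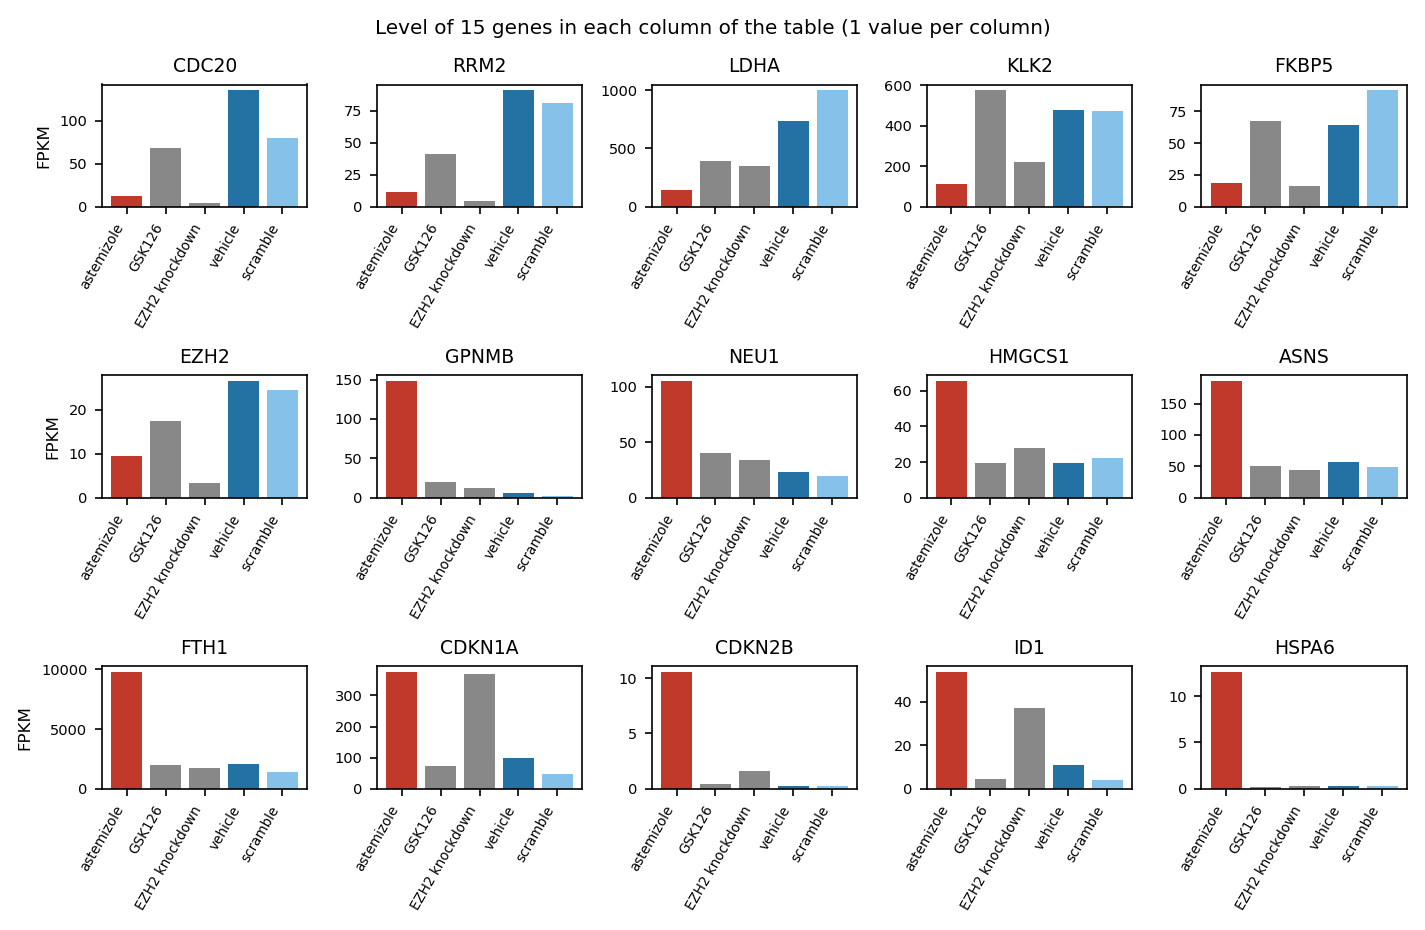
FPKM of 15 genes in each column of the table (vertical axes start at 0 and differ between panels), with astemizole, GSK126 and EZH2 knockdown left of vehicle and scramble, 1 value per bar. CDC20, RRM2 and EZH2 are lowest in the knockdown column and next lowest with astemizole, while GPNMB, NEU1, FTH1 and HSPA6 are highest with astemizole, as at 148 FPKM for GPNMB.

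Androgen-induced genes, which luminal prostate cells transcribe in response to the hormone, were lower in part. Of 37 measured, 11 were at least 2-fold lower than vehicle, 7 lower than both controls and 1 higher. The median was -0.63 over vehicle and -0.71 over scramble, beside 0.22 for GSK126 over vehicle and -0.55 for the knockdown column over scramble. The drug comparisons share the vehicle library. KLK2, a secreted prostate protease, was at 111 FPKM with astemizole, 574 with GSK126 and 218 in the knockdown column, against 477 with vehicle and 473 with scramble shRNA. KLK3, the prostate-specific antigen, was at 1229.9 FPKM with astemizole, 3112 with GSK126 and 1635 in the knockdown column, against 2675 with vehicle and 2796 with scramble shRNA, with log2 ratios of -1.12 over vehicle and -1.18 over scramble for astemizole. FKBP5, a chaperone partner of steroid receptors, was at 18.6 FPKM with astemizole, 67.2 with GSK126 and 16.4 in the knockdown column, against 64.1 with vehicle and 91.5 with scramble shRNA. CAMKK2, a kinase of metabolic signalling, was at 20.0 FPKM with astemizole, against 45.2 with vehicle and 49.5 with scramble shRNA, and SPDEF, a luminal transcription factor, was at 53.5 FPKM with astemizole, against 113 with vehicle and 112 with scramble shRNA. The SPDEF ratio over vehicle was -1.07 and did not pass after centring on the median, at -0.97. TMPRSS2, a membrane protease, was at 191 FPKM with astemizole, 438 with GSK126 and 258 in the knockdown column, against 269 with vehicle and 361 with scramble shRNA, and its ratios of -0.49 over vehicle and -0.91 over scramble did not reach 2-fold. For KLK2, KLK3 and TMPRSS2 the GSK126 value was the highest of the 5 columns.

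Other prostate genes lay on the other side. ACPP, the secreted prostatic acid phosphatase, was at 16.9 FPKM with astemizole, 16.6 with GSK126 and 20.7 in the knockdown column, against 4.09 with vehicle and 4.4 with scramble shRNA, with ratios of 1.81 over vehicle and 1.72 over scramble, and it was high under all 3 treatments. KLK4, a kallikrein of the same cluster as KLK2 and KLK3, was at 271 FPKM with astemizole, against 163 with vehicle and 191 with scramble shRNA, within 2-fold of each control but above both. Of 5 measured androgen-repressed genes, 2 were higher: CAMK2N1, an inhibitor of calcium-dependent kinases, at 42.7 FPKM with astemizole, 36.8 with GSK126 and 37.5 in the knockdown column, against 15.7 with vehicle and 11.3 with scramble shRNA, and ST7, at 95.7 FPKM with astemizole, 73.3 with GSK126 and 73 in the knockdown column, against 39.3 with vehicle and 34.2 with scramble shRNA. FOLH1, the surface antigen PSMA, was at 923 FPKM with astemizole, against 466 with vehicle and 569 with scramble shRNA, with ratios of 0.98 over vehicle and 0.70 over scramble. Of 20 measured pioneer factors and coregulators, 1 was lower and 0 higher, beside 3.34% and 2.79% of all genes tested. Their median was -0.04 over vehicle, -0.09 over scramble and 0.06 after centring on the median. PRMT5, an arginine methyltransferase, was the one that passed, at 32.3 FPKM with astemizole, against 66.4 with vehicle and 69.2 with scramble shRNA. Its ratio over vehicle was -1.02, and it did not pass after rescaling to TPM, at -0.98, or centring on the median, at -0.92. The pioneer factors were close to the controls: FOXA1, which opens luminal enhancers, was at 107 FPKM with astemizole, against 105 with vehicle and 114 with scramble shRNA, and HOXB13 was at 125 FPKM with astemizole, against 156 with vehicle and 133 with scramble shRNA.

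Luminal epithelial markers mostly stayed within 2-fold. Of 18 measured, 1 was higher and 1 lower, beside 2.79% and 3.34% of all genes tested. Their median was -0.10 over vehicle and 0.08 over scramble. KRT18 was at 342 FPKM with astemizole, against 479.5 with vehicle and 425 with scramble shRNA. KRT19, a low-level keratin in these cells, was at 0.164 FPKM with astemizole, against 2.87 with vehicle and 1.96 with scramble shRNA, and ELF3, an epithelial transcription factor, was at 20.0 FPKM with astemizole, against 6.98 with vehicle and 3.75 with scramble shRNA. None of 5 measured mesenchymal markers passed against both controls. Against vehicle 3 lay below and 2 above, and 1 was at least 2-fold lower. The median was -0.43 over vehicle and 0.17 over scramble, so its sign depended on the control. VIM, 1 of the 2 above vehicle, was at 3.9 FPKM with astemizole, against 3.28 with vehicle and 3.01 with scramble shRNA.

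The integrated stress response was the list with the largest number of higher genes. It is the program that cells start through the factor ATF4 when amino acids, heme or protein folding run short. Of 36 measured members, 17 were higher and 0 lower, and 33 lay above 0 over vehicle. The median was 0.91 over vehicle and 1.10 over scramble, beside -0.25 for GSK126 over vehicle and -0.30 for the knockdown column over scramble. Among the regulators, ATF4 itself was at 744 FPKM with astemizole, against 387 with vehicle and 244 with scramble shRNA, past 2-fold over scramble but not over vehicle. DDIT3, the factor CHOP, was at 85.6 FPKM with astemizole, against 29.5 with vehicle and 16.5 with scramble shRNA. ATF3, another induced factor, was at 34.6 FPKM with astemizole, against 11.9 with vehicle and 9.16 with scramble shRNA. NUPR1, a small chromatin protein of stressed cells, was at 770.3 FPKM with astemizole, 179 with GSK126 and 125 in the knockdown column, against 162 with vehicle and 129.6 with scramble shRNA, with ratios of 2.24 over vehicle and 2.56 over scramble. TRIB3, the pseudokinase that feeds back on ATF4, was at 75.4 FPKM with astemizole, 16.8 with GSK126 and 9.25 in the knockdown column, against 28.5 with vehicle and 19 with scramble shRNA, so that GSK126 and the knockdown lay below their controls while astemizole lay above.

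Several of the 17 higher members handle amino acids. ASNS, asparagine synthetase, was at 186 FPKM with astemizole, 51 with GSK126 and 43.7 in the knockdown column, against 57.3 with vehicle and 48.8 with scramble shRNA. PSAT1, of serine synthesis, was at 244 FPKM with astemizole, against 107 with vehicle and 86.5 with scramble shRNA. CTH, which makes cysteine, was at 16.2 FPKM with astemizole, against 4.81 with vehicle and 4.89 with scramble shRNA, and CHAC1, which degrades glutathione, was at 14.2 FPKM with astemizole, against 4.01 with vehicle and 1.51 with scramble shRNA. The cystine importer SLC7A11 was at 24.9 FPKM with astemizole, against 5.92 with vehicle and 4.59 with scramble shRNA. The glycine transporter SLC6A9 was at 17.1 FPKM with astemizole, 1.99 with GSK126 and 1.2 in the knockdown column, against 3.13 with vehicle and 1.17 with scramble shRNA, with ratios of 2.14 over vehicle and 3.06 over scramble. SLC3A2, the shared heavy chain of several importers, was at 205 FPKM with astemizole, against 86.8 with vehicle and 64.9 with scramble shRNA. Some familiar members stayed within 2-fold, such as the folate enzyme MTHFD2 at 82.1 FPKM with astemizole, against 86.3 with vehicle and 68.6 with scramble shRNA and the stress cytokine GDF15 at 1432 FPKM with astemizole, against 963 with vehicle and 1096 with scramble shRNA. Of 20 cytosolic aminoacyl-tRNA synthetases, GARS and SARS were higher. SARS, which charges serine, was at 229 FPKM with astemizole, against 104 with vehicle and 92 with scramble shRNA.

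The letters TGATGNAA, the core of the C/EBP-ATF response element, searched on both strands, were in 5 of 30 matched promoters of the integrated stress response list (16.7%) and in 3.67% of all promoter windows. Among matched genes past 2-fold over both controls 4 of 15 (26.7%) held them. The promoter of ASNS (chr7:97872359-97872658, minus strand, written along the gene) is shown because the element is long known there, and the match, in capitals, begins at -68.
ASNS: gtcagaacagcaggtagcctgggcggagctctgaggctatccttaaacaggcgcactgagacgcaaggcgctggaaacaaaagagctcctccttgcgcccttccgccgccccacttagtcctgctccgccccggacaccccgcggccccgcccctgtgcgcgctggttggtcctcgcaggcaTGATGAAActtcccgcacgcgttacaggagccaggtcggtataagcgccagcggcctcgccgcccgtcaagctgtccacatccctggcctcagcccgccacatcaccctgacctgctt

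Chaperones outside that program were mixed. Of 30 measured endoplasmic reticulum chaperones and unfolded protein response genes, 0 were higher and 1 was lower, beside 2.79% and 3.34% of all genes tested. Their median was -0.06 over vehicle, -0.05 over scramble and 0.03 after centring on the median. HSPA5, the main chaperone of that compartment, was at 246 FPKM with astemizole, against 402 with vehicle and 336 with scramble shRNA, and the passing gene DERL3 was at 1.59 FPKM with astemizole, against 4.97 with vehicle and 4.63 with scramble shRNA. DNAJB9 was at 39.3 FPKM with astemizole, against 21.2 with vehicle and 17.8 with scramble shRNA, above both controls but under 2-fold over vehicle. Of 24 cytosolic heat shock genes, 3 were higher and 0 lower, while the median was -0.45 over vehicle and -0.40 over scramble. HSPA6, the strictly inducible chaperone of the HSP70 family, was at 12.6 FPKM with astemizole, 0.171 with GSK126 and 0.273 in the knockdown column, against 0.327 with vehicle and 0.238 with scramble shRNA, with ratios of 3.35 over vehicle and 3.45 over scramble. The small chaperone HSPB8, which works with BAG3 in selective autophagy, was at 4.6 FPKM with astemizole, against 0.315 with vehicle and 0.251 with scramble shRNA. HSPA6 and HSPB8 passed the 1 FPKM filter through the astemizole value alone, and 24 of 26 listed heat shock genes were measured. CRYAB, a related small chaperone, was at 13.9 FPKM with astemizole, against 4.04 with vehicle and 1.44 with scramble shRNA. The abundant chaperones were on the low side within 2-fold, with HSP90AA1 at 918 FPKM with astemizole, against 1573 with vehicle and 1513 with scramble shRNA and HSPH1 at 81.4 FPKM with astemizole, against 122 with vehicle and 137 with scramble shRNA. Heat shock elements are inverted repeats, and the letters TTCNNGAA were in 4 of 21 matched promoters of the list (19%) and in 7.84% of all promoter windows. The promoter of HSPA6 (chr1:161524290-161524589, plus strand) is shown because it was the highest member, with the match beginning at -74.
HSPA6: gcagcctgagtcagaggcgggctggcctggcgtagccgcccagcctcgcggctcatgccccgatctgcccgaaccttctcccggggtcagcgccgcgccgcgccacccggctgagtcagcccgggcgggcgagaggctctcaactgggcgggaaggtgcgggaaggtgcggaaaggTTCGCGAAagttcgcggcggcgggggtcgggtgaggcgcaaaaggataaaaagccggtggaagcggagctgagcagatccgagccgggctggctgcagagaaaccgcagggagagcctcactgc

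Antioxidant and iron genes were higher in part. Of 23 measured NRF2 antioxidant genes, 6 were higher and 0 lower, and the list had a median of 0.55 over vehicle and 0.73 over scramble. Among the 6, SLC7A11 is also counted in the integrated stress response list and HMOX1 in the iron and heme list. HMOX1, heme oxygenase, was at 59.5 FPKM with astemizole, 14.4 with GSK126 and 11 in the knockdown column, against 17.1 with vehicle and 10.4 with scramble shRNA. ME1, the malic enzyme that supplies NADPH, was at 136 FPKM with astemizole, against 53.3 with vehicle and 61.5 with scramble shRNA, with a ratio over scramble of 0.91 after rescaling to TPM, and NQO1, a quinone reductase, was at 147 FPKM with astemizole, against 75.2 with vehicle and 79.3 with scramble shRNA, just under 2-fold. AKR1C1 was at 2.54 FPKM with astemizole, against 0.21 with vehicle and 0.0302 with scramble shRNA, with low control values and close paralogs that can share reads. It passed the filter through the astemizole value alone. The largest difference in level belonged to ferritin, the iron store. FTH1, its heavy chain, was at 9758 FPKM with astemizole, 1990.2 with GSK126 and 1767 in the knockdown column, against 2104 with vehicle and 1422 with scramble shRNA. It made up 1.26% of the summed FPKM with astemizole, against 0.264% with vehicle and 0.215% with scramble. FTL, the light chain, was at 1363 FPKM with astemizole, 536 with GSK126 and 440.1 in the knockdown column, against 381 with vehicle and 353 with scramble shRNA. Both have processed pseudogenes, and how reads shared with them were treated is not stated in the labels. LCN2, the secreted siderophore carrier, was at 16.4 FPKM with astemizole, against 0.492 with vehicle, and was listed at 0 with scramble. It too passed the filter through the astemizole value alone. The transferrin receptor TFRC, which takes up iron, was at 115 FPKM with astemizole, against 122 with vehicle and 166 with scramble shRNA. Of 25 measured iron and heme genes, 4 were higher, while CPOX of heme synthesis was lower, at 6.7 FPKM with astemizole, against 19.4 with vehicle and 16.1 with scramble shRNA.

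The aryl hydrocarbon receptor axis answers to flat aromatic compounds. Of its 12 listed genes, 8 were measured, and 2 of these were higher. Of the 2, CYP1A2 passed the 1 FPKM filter through the astemizole value alone. The other was SLC7A5, at 58.2 FPKM with astemizole, against 26.8 with vehicle and 22.5 with scramble shRNA. CYP1A2, a drug-oxidizing cytochrome, was at 9.23 FPKM with astemizole, 1.4 with GSK126 and 1.41 in the knockdown column, against 0.436 with vehicle and 0.573 with scramble shRNA. The usual indicator genes were less clear: CYP1A1 was at 5.87 FPKM with astemizole, against 2.89 with vehicle and 1.14 with scramble shRNA, and CYP1B1 was at 0.302 FPKM with astemizole, against 1.42 with vehicle and 1.54 with scramble shRNA, below both controls. Metallothioneins and zinc transporters had 0 of 15 members past 2-fold over both controls.

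Some lysosomal genes were higher, and most lay above vehicle. The MiT/TFE factors switch such genes on together when lysosomes are stressed or mTORC1 is low. Of 46 measured lysosomal hydrolases and activators, 36 lay above vehicle and 38 above scramble, 6 were higher and 0 were lower, with a median of 0.53 over vehicle and 0.52 over scramble. NEU1, the sialidase, was at 105 FPKM with astemizole, 40.4 with GSK126 and 34.1 in the knockdown column, against 23.3 with vehicle and 19.4 with scramble shRNA, with log2 ratios of 2.13 over vehicle and 2.37 over scramble. The protease TPP1 was at 47.6 FPKM with astemizole, against 12 with vehicle and 16.2 with scramble shRNA. Cathepsin D, CTSD, was at 329 FPKM with astemizole, against 124 with vehicle and 121 with scramble shRNA. CTSC, an aminopeptidase, went against the group, at 13.7 FPKM with astemizole, against 38 with vehicle and 26.1 with scramble shRNA, 2-fold lower than vehicle and within 2-fold of scramble.

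Of 29 measured lysosomal membrane proteins and transporters, 27 lay above vehicle and 26 above scramble, 7 were higher and 0 lower, with medians of 0.65 and 0.69. GPNMB, a glycoprotein of lysosomes and melanosomes, was at 148 FPKM with astemizole, 20.5 with GSK126 and 11.7 in the knockdown column, against 5.75 with vehicle and 2.24 with scramble shRNA. GSK126 over vehicle, at 1.67, and the knockdown column over scramble, at 1.97, also passed 2-fold for GPNMB. The astemizole ratios of 4.46 over vehicle and 5.52 over scramble were the highest of any named gene with values above 0 in both controls. CLCN7, the chloride-proton exchanger, was at 17.2 FPKM with astemizole, against 5.58 with vehicle and 5 with scramble shRNA, and SIDT2 was at 31.9 FPKM with astemizole, 27.3 with GSK126 and 27.3 in the knockdown column, against 11.4 with vehicle and 10.6 with scramble shRNA. LAMP1, the bulk structural protein, was at 101 FPKM with astemizole, against 50.7 with vehicle and 51.7 with scramble shRNA, close to 2-fold. Of 17 V-ATPase subunits, which acidify the lumen, 15 lay above vehicle, 16 above scramble and 1, ATP6V0E1, was higher, at 449 FPKM with astemizole, against 208 with vehicle and 187 with scramble shRNA. The median of that list was 0.48 over vehicle and 0.52 over scramble. Its 1 higher member of 17 stands beside 2.79% of all genes tested.

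The letters TCACGTG, the core of the CLEAR element bound by MiT/TFE factors, were in 3.82% of all promoter windows and in 6.21% of those of tested genes, searched on both strands. Fewer than 80% of the lysosomal members could be matched to a window, 31 of 46 hydrolases among them, so no share is given for these lists. The promoters of NEU1 (chr6:31862772-31863071, minus strand) and CLCN7 (chr16:1474979-1475278, minus strand) are shown, written along the gene, because they pair an enzyme and a transporter that passed 2-fold and hold the letters. The match begins at -127 in NEU1 and at -48 and -28 in CLCN7.
NEU1: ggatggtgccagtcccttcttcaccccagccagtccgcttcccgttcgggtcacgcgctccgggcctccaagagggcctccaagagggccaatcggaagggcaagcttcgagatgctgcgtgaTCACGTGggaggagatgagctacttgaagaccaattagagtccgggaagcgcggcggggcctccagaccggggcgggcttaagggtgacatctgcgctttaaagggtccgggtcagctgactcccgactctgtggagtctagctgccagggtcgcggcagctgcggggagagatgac
CLCN7: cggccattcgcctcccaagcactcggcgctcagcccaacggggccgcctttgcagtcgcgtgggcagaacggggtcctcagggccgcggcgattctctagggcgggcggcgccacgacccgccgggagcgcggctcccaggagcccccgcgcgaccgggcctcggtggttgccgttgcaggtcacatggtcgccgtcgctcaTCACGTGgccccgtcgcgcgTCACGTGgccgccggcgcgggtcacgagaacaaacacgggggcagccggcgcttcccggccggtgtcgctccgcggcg

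Of 41 measured autophagy genes, 6 were higher and 0 were lower, with a median of 0.14 over vehicle and 0.24 over scramble. SESN2 and TP53INP1, among the 6, are also counted as p53 targets. SQSTM1, the receptor for ubiquitinated cargo, was at 297 FPKM with astemizole, 107 with GSK126 and 145 in the knockdown column, against 84.2 with vehicle and 102 with scramble shRNA. OPTN, another cargo receptor, was at 18.5 FPKM with astemizole, against 3.21 with vehicle and 2.77 with scramble shRNA. GABARAPL1 and MAP1LC3B belong to the family that is coupled to autophagosome membranes. GABARAPL1 was at 50.5 FPKM with astemizole, against 15 with vehicle and 17 with scramble shRNA, and the astemizole value lay above both controls, as it did for MAP1LC3B, at 49.6 FPKM with astemizole, against 22.2 with vehicle and 21.9 with scramble shRNA. After rescaling to TPM the MAP1LC3B ratio over scramble was 0.93, under 2-fold. Among genes of initiation, ULK1, the initiating kinase, was at 6.3 FPKM with astemizole, against 5.88 with vehicle and 5.18 with scramble shRNA, and BECN1, of the lipid kinase complex, was at 52.3 FPKM with astemizole, against 50.6 with vehicle and 48.2 with scramble shRNA. Of 24 MiT/TFE factors and mTORC1 regulators, 3 were higher and 0 lower. These were FLCN, RRAGC and RRAGD, which together tie mTORC1 to the lysosome, with RRAGD at 9.45 FPKM with astemizole, against 2.61 with vehicle and 2.67 with scramble shRNA. FLCN did not pass over scramble after rescaling to TPM, at 0.95. The factors themselves did not pass. TFEB was at 5.1 FPKM with astemizole, against 9.96 with vehicle and 6.4 with scramble shRNA, and MITF was at 3.86 FPKM with astemizole, against 7.85 with vehicle and 5.04 with scramble shRNA, both on the low side. TFE3 was at 16.6 FPKM with astemizole, against 14.6 with vehicle and 12 with scramble shRNA.

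Cholesterol synthesis genes were higher in 8 cases and lower in 1. SREBP factors induce these enzymes when sterols are short in the endoplasmic reticulum. Of 22 measured genes, 21 lay above vehicle and 21 above scramble, with a median of 0.85 over vehicle and 0.93 over scramble, beside -0.27 for GSK126 over vehicle and -0.03 for the knockdown column over scramble. HMGCS1, which commits carbon to the pathway, was at 65.3 FPKM with astemizole, 19.7 with GSK126 and 27.9 in the knockdown column, against 19.5 with vehicle and 22.4 with scramble shRNA. LSS, which closes the sterol rings, was at 82.4 FPKM with astemizole, against 29.8 with vehicle and 29.3 with scramble shRNA. SC5D, a late desaturase, was at 77.9 FPKM with astemizole, against 26.8 with vehicle and 26.5 with scramble shRNA. A pair of enzymes that can each reduce the same sterol double bond went opposite ways. TM7SF2 was at 356 FPKM with astemizole, 99.1 with GSK126 and 211 in the knockdown column, against 75.5 with vehicle and 88.5 with scramble shRNA, with ratios of 2.22 over vehicle and 2.00 over scramble, whereas LBR, also a lamin receptor of the nuclear envelope, was at 13.3 FPKM with astemizole, 21.6 with GSK126 and 19.4 in the knockdown column, against 33.1 with vehicle and 31.7 with scramble shRNA, with ratios of -1.25 over vehicle and -1.19 over scramble.

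Of 27 measured cholesterol uptake, transport and sensing genes, 4 were higher and 1 lower, at a list median of 0.12 over vehicle and 0.26 over scramble. NPC2, which hands cholesterol to the lysosomal membrane, was at 317 FPKM with astemizole, 126 with GSK126 and 98.4 in the knockdown column, against 94.3 with vehicle and 71.4 with scramble shRNA. STARD4, a cytosolic sterol carrier, was at 17 FPKM with astemizole, against 5.15 with vehicle and 7.42 with scramble shRNA, and after rescaling to TPM its ratio over scramble was 0.91, under 2-fold. INSIG1, the sterol sensor that retains SREBP, was at 435 FPKM with astemizole, against 204 with vehicle and 161 with scramble shRNA. OSBPL8 was the lower one, at 10.4 FPKM with astemizole, against 26 with vehicle and 31.2 with scramble shRNA. Of 25 fatty acid synthesis and desaturation genes, 4 were higher and 0 lower. SCD, the desaturase that makes oleate, was at 656 FPKM with astemizole, 165 with GSK126 and 190.1 in the knockdown column, against 166 with vehicle and 275 with scramble shRNA. The acyl-CoA ligase ACSL1 was at 436 FPKM with astemizole, against 152 with vehicle and 155 with scramble shRNA, and the acetate-activating ACSS2 was at 52 FPKM with astemizole, against 18.6 with vehicle and 19.2 with scramble shRNA. FASN, fatty acid synthase, was at 169.8 FPKM with astemizole, against 212 with vehicle and 146 with scramble shRNA, within 2-fold. None of 24 fatty acid oxidation genes and none of 25 phospholipid and sphingolipid turnover genes passed 2-fold against vehicle, with medians of -0.10 and 0.14. The oxidation median was 0.11 over scramble.

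**Figure D4:**
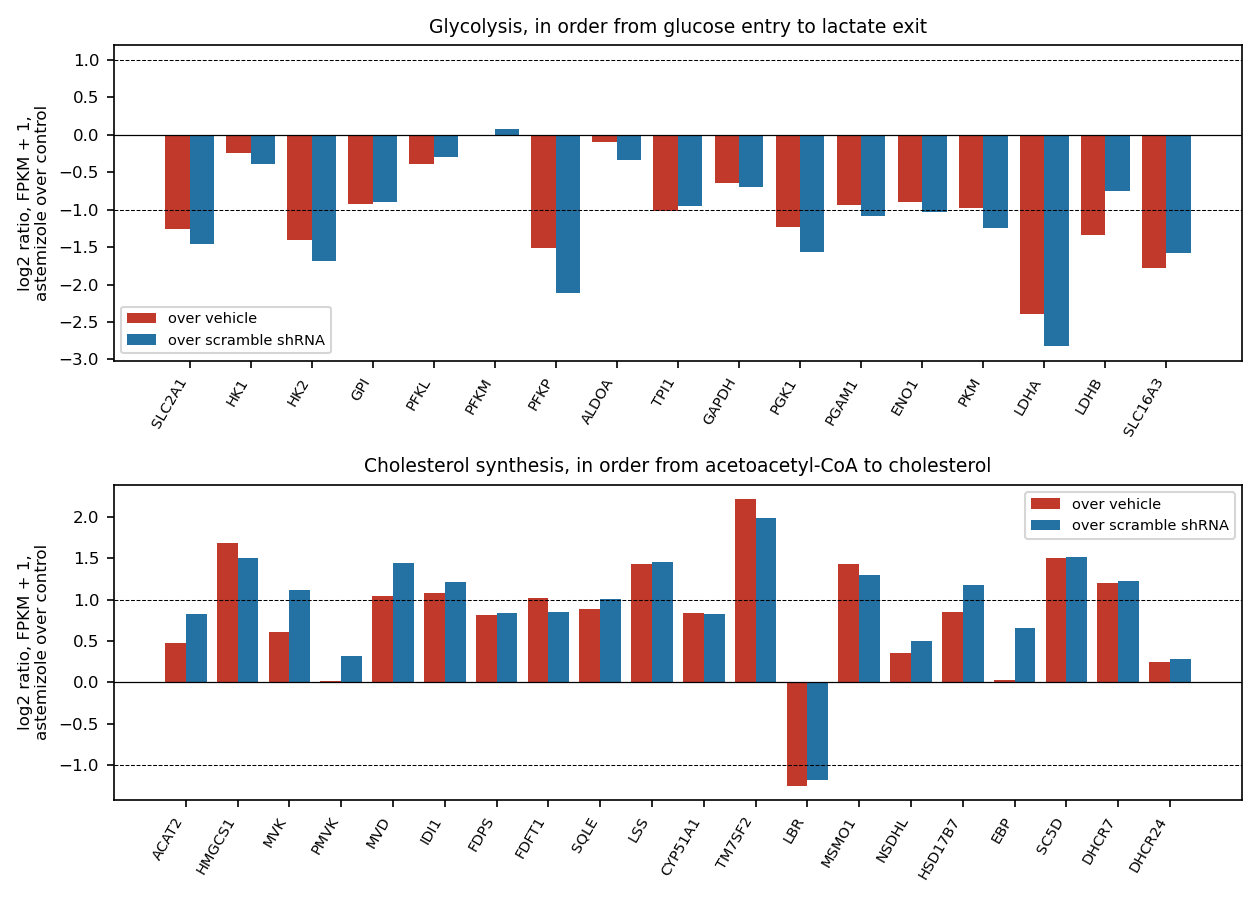
Log2 ratio of FPKM + 1 with astemizole over vehicle (red) and over scramble shRNA (blue) for genes of glycolysis (upper) and cholesterol synthesis (lower), in pathway order from left to right. Dashed lines mark 2-fold. Glycolysis bars point down at most steps, with LDHA at -2.39 and -2.83, and cholesterol bars point up except at LBR, next to TM7SF2.

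Of 22 measured glycolysis genes, 8 were lower than both controls and 0 higher, while 19 lay below vehicle and 3 above, with a median of -0.96 over vehicle and -0.99 over scramble. LDHA, which makes lactate from pyruvate, was at 140.0 FPKM with astemizole, 391 with GSK126 and 350.4 in the knockdown column, against 736 with vehicle and 999 with scramble shRNA. Its ratios were -2.39 over vehicle and -2.83 over scramble. SLC16A3, the lactate exporter, was at 11.6 FPKM with astemizole, against 41.9 with vehicle and 36.4 with scramble shRNA. SLC2A1, the glucose importer, was at 11.1 FPKM with astemizole, against 28.1 with vehicle and 32.5 with scramble shRNA, and HK2, the inducible hexokinase, was at 4.22 FPKM with astemizole, against 12.8 with vehicle and 15.8 with scramble shRNA. PFKFB3 and PFKFB4 set the level of the allosteric activator of glycolysis. PFKFB3 was at 3.14 FPKM with astemizole, against 12.7 with vehicle and 12.5 with scramble shRNA. PFKFB4 was at 3.95 FPKM with astemizole, against 13.3 with vehicle and 11.6 with scramble shRNA, again below both controls. Isoforms of 1 step differed: PFKP was at 20.7 FPKM with astemizole, against 60.8 with vehicle and 93.1 with scramble shRNA, but the muscle type PFKM was at 68.6 FPKM with astemizole, against 69.3 with vehicle and 65 with scramble shRNA. GAPDH was at 2396 FPKM with astemizole, against 3734 with vehicle and 3901 with scramble shRNA, within 2-fold. GSK126 over vehicle and the knockdown column over scramble had medians of -0.60 and -0.74 for the same list.

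Hypoxia-inducible genes overlapped with this in part. Of 22 measured, 3 were lower and 0 higher, with a median of -0.21 over vehicle and -0.31 over scramble. These were PLOD2, a collagen-modifying enzyme at 0.182 FPKM with astemizole, against 3.02 with vehicle and 3.76 with scramble shRNA, ANKRD37 at 4.15 FPKM with astemizole, against 13.4 with vehicle and 13.9 with scramble shRNA, and BNIP3. VEGFA, an angiogenic factor that ATF4 also induces, was at 49.6 FPKM with astemizole, against 26.5 with vehicle and 30.2 with scramble shRNA, above both controls and within 2-fold. The hypoxia response letters TACGTG, searched on both strands, were in 2 of 21 matched glycolysis promoters (9.52%) and 6 of 18 matched hypoxia promoters (33.3%), against 3.33% of all promoter windows. Among matched glycolysis genes past 2-fold against both controls, 0 of 8 held them.

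Respiratory chain, ribosomal protein and proteasome genes stayed within 2-fold of vehicle, with most members below vehicle in several lists. None of 42 respiratory chain subunits, 31 mitochondrial ribosomal proteins, 31 proteasome subunits and 33 cytosolic ribosomal proteins passed 2-fold against vehicle. In the same order, 35, 31, 29 and 18 of them lay below vehicle, while 22, 3, 7 and 33 lay above scramble. Their medians over vehicle were -0.28, -0.62, -0.32 and -0.02, and over scramble 0.04, -0.27, -0.11 and 0.41 in the same order, so the sign depended on the control for the respiratory chain and for cytosolic ribosomal proteins. For cytosolic ribosomal proteins the sign also changed with the scaling, at 0.07 after centring on the median. Of 31 ribosome biogenesis genes, 31 lay below vehicle and 5 were at least 2-fold lower than vehicle. The median was -0.62 over vehicle and -0.54 over scramble. Against both controls 1 of the 31, LYAR, was lower, beside 3.34% of all genes tested. LYAR was at 15.4 FPKM with astemizole, against 51.7 with vehicle and 32 with scramble shRNA. The nucleolar factor NCL was at 302 FPKM with astemizole, against 595 with vehicle and 559.9 with scramble shRNA. Polyamines support growth, and their rate-limiting enzyme ODC1 was at 198 FPKM with astemizole, 1154 with GSK126 and 276 in the knockdown column, against 1274 with vehicle and 958 with scramble shRNA. Spermine synthase, SMS, was at 101 FPKM with astemizole, against 265 with vehicle and 321 with scramble shRNA, while ARG2, the mitochondrial arginase, was at 81.2 FPKM with astemizole, against 30.5 with vehicle and 38.2 with scramble shRNA. After rescaling to TPM the ARG2 ratio over scramble was 0.85, under 2-fold.

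Antigen presentation and interferon genes were mixed. Of 17 measured antigen presentation genes, 2 were higher and 0 lower. The median stood at 0.59 over vehicle and 0.86 over scramble. HLA-B was at 84.6 FPKM with astemizole, against 38.4 with vehicle and 36.7 with scramble shRNA, a value that depends on how reads shared between class I genes were split and that did not pass over scramble after rescaling to TPM, at 0.97. TAPBP, which loads peptides on class I molecules, was at 38.4 FPKM with astemizole, against 16.5 with vehicle and 13.3 with scramble shRNA. B2M, their common light chain, was at 583 FPKM with astemizole, against 298 with vehicle and 203 with scramble shRNA, just under 2-fold over vehicle. Of 21 interferon-stimulated genes, 2 were higher and 2 lower. Of the 2 higher, IRF1 passed the 1 FPKM filter through the astemizole value alone. IFI35 was at 25.3 FPKM with astemizole, against 9.64 with vehicle and 6.15 with scramble shRNA and the factor IRF1 was at 2.96 FPKM with astemizole, against 0.885 with vehicle and 0.417 with scramble shRNA, whereas the antiviral IFITM1 was at 0.45 FPKM with astemizole, against 5.28 with vehicle and 3.54 with scramble shRNA and OAS3 was at 1.32 FPKM with astemizole, against 4.08 with vehicle and 4.75 with scramble shRNA. Of 15 measured tubulins 2 were lower, with TUBA1B at 89.3 FPKM with astemizole, against 341 with vehicle and 253 with scramble shRNA. TUBA1A was at 1.31 FPKM with astemizole, against 9.65 with vehicle and 0.475 with scramble shRNA, so that its direction reversed with the control.

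The extremes of the whole comparison belonged to several classes. Apart from genes described above, the 12 highest included PRSS1, DIO3, CAMK1D, S100P, NOS3 and HSD17B14. PRSS1, a digestive trypsinogen with close paralogs that can share reads, was at 30.8 FPKM with astemizole, 0.678 with GSK126 and 0.311 in the knockdown column, against 1.77 with vehicle and 1.04 with scramble shRNA. DIO3, which inactivates thyroid hormone, was at 9.58 FPKM with astemizole, 0.343 with GSK126 and 0.148 in the knockdown column, against 0.0638 with vehicle and 0.0182 with scramble shRNA. S100P, a secreted calcium-binding protein, was at 83.9 FPKM with astemizole, 6.84 with GSK126 and 7.09 in the knockdown column, against 7.85 with vehicle and 12.7 with scramble shRNA. NOS3, the endothelial nitric oxide synthase, was at 13.7 FPKM with astemizole, 2.28 with GSK126 and 1.44 in the knockdown column, against 1.43 with vehicle and 0.979 with scramble shRNA, in libraries without endothelial markers at 1 FPKM. HSD17B14, a steroid dehydrogenase, was at 22 FPKM with astemizole, 5.68 with GSK126 and 2.02 in the knockdown column, against 3.05 with vehicle and 1.91 with scramble shRNA. CAMK1D, a calcium-dependent kinase, was at 7.14 FPKM with astemizole, against 0.248 with vehicle and 0.238 with scramble shRNA. DIO3 and CAMK1D passed the 1 FPKM filter through the astemizole value alone. In all, 12 of the 12617 genes tested were under 1 FPKM in both controls and reached 5 FPKM or more with astemizole. Such genes passed the filter in the same way, so they could only lie above the controls.

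Among the 12 lowest, several were secreted or surface proteins and not cell cycle genes. PHGR1, an epithelial peptide gene, was at 0.235 FPKM with astemizole, 24.4 with GSK126 and 12.4 in the knockdown column, against 21.3 with vehicle and 42.5 with scramble shRNA, with ratios of -4.17 over vehicle and -5.14 over scramble. NMU, a neuropeptide, was at 1.93 FPKM with astemizole, 30.9 with GSK126 and 1.52 in the knockdown column, against 48.2 with vehicle and 25.4 with scramble shRNA. PGC, the pepsinogen also made by prostate, was at 0.369 FPKM with astemizole, 22.5 with GSK126 and 1.35 in the knockdown column, against 18.3 with vehicle and 13.9 with scramble shRNA. TM4SF1, a membrane protein of growing epithelia, was at 5 FPKM with astemizole, 47.5 with GSK126 and 10.9 in the knockdown column, against 70.5 with vehicle and 45.5 with scramble shRNA. PHLDA1 was at 1.15 FPKM with astemizole, 14.3 with GSK126 and 13.7 in the knockdown column, against 18.7 with vehicle and 15.2 with scramble shRNA, and there neither GSK126 nor the knockdown passed 2-fold. In all, 11 of the 12617 genes tested had 5 FPKM or more in both controls and stood under 1 FPKM with astemizole.

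A few genes passed 2-fold with astemizole and lay at least 1.5-fold on the other side of the control under another treatment. Against GSK126 over vehicle, which shares the vehicle library, these were ID1, ID3, PRSS1 and TRIB3 among higher genes, and CRISP3, CXCL12, KLK14, LBH and MICAL2 among lower ones. CXCL12, a chemokine, was at 7.53 FPKM with astemizole, 41.7 with GSK126 and 5.57 in the knockdown column, against 19.3 with vehicle and 18.8 with scramble shRNA. CRISP3, a secreted protein of prostate and glands, was at 1.58 FPKM with astemizole, 22.3 with GSK126 and 9.18 in the knockdown column, against 11.8 with vehicle and 4.72 with scramble shRNA. In the knockdown column over scramble, 10 genes that were higher with astemizole lay on the low side. They included PCK2, a mitochondrial enzyme induced by ATF4, at 115.9 FPKM with astemizole, 29.7 with GSK126 and 13.8 in the knockdown column, against 38.9 with vehicle and 29.6 with scramble shRNA, and the channel protein CLIC4, at 33.4 FPKM with astemizole, 15.4 with GSK126 and 4.68 in the knockdown column, against 11.6 with vehicle and 10.3 with scramble shRNA. HRH1, the gene of the histamine receptor that astemizole is known to block, was at 0.241 FPKM with astemizole, against 0.257 with vehicle and 0.146 with scramble shRNA, under 1 FPKM in each of these libraries.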

How the data were processed

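Polyadenylated RNA of C4-2 cells was sequenced in 6 labelled libraries, 1 per condition. The authors deposited a table of FPKM values, per the labels. TopHat2, Cuffdiff and the build hg19 come from the submitters' processing notes, without versions. The sources used here state neither the annotation nor how shared reads and strand were treated. Of 28503 lines, 27 names turned into dates and 1716 short non-coding RNAs were left out. Genes at 1 FPKM or more with astemizole or vehicle were kept, and log2 ratios of FPKM + 1 were computed with Python 3.11.15, pandas 2.3.3 and numpy 2.4.6, and drawn with matplotlib 3.10.9. The steps were run on simulated data, made from the vehicle values with changes above 2-fold set in genes at 5 FPKM or more. That run does not bear on low values or on changes near 2-fold. Genes past 2-fold were counted. Depth is unknown, so no interval is given.

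The genes, the 60 lists and the rules were chosen with earlier results of these data known. The rule for names took, per list, up to 4 genes with the largest ratios against both controls, the 12 highest and 12 lowest genes with a known symbol, 5 FPKM or more and no 0, and a few fixed genes. Other named members were chosen after their values were seen. Values of a few genes that the rule or lists take in are not reported here. Promoters are RefSeq windows on GRCh38.p14, and no hg19 annotation was used.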

Additional observations from a re-analysis of the deposited data

How the results depend on the processing

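Besides the reported setting, 7 alternatives were planned and 1 was added after seeing the data. With a pseudocount of 0.1 FPKM, 739 genes were higher than vehicle and 563 higher than both controls. With that pseudocount and no filter on low values, 1343 were higher and 1534 lower than vehicle, and 973 were higher and 796 lower than both controls. The other 22 counts stayed within 1.5 times the reported ones. These included a filter at 5 FPKM, rescaling to TPM, centring on the median and leaving out liver markers and genes that differed between the controls, which is the added alternative and gave 440 higher and 651 lower than vehicle. With scramble or the mean of both controls as the control, no count against both controls exists. The median of the liver markers was 0.0308 over scramble, the reverse of -1.32 over vehicle. Of the other list medians, 402 values stayed within 0.33 of the reported one, the standard deviation of scramble over vehicle, and 11 moved further. For genes named by the rule 844 values stayed within it, 136 moved further and 0 reversed. Most of these genes were taken for passing 2-fold in the same direction against both controls. The alternatives could hardly reverse them, so the 0 is no check of their direction. TUBA1A, named after its values were seen and not among them, reversed over scramble. The cause was not tested. Rescaling to TPM put the median of all genes over scramble at -0.16, against 0.03 as reported. Of 284 genes of the lists past 2-fold against both controls, 15 were no longer so after that rescaling and 6 after centring on the median. No paired analysis was possible because each condition has 1 library. Read totals are not in the table, so low values carry an unknown counting error.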
